A study of Mus musculus with 6 samples.

Results

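*H19*, *Igf2*, *Igf2r*, *Dlk1*, *Meg3*, *Peg3*, *Plagl1*, *Grb10*, *Cdkn1c* and *Ndn* are imprinted genes that act on growth before and around birth. They were chosen by name, and all 10 were present among the 32285 genes of the count table. The study set striatal astrocytes of young pups, 3 days after birth (P3), beside those of adult mice aged 3 months (3m), all wild-type C57BL/6 males, in 3 single-cell RNA libraries per age. Cells were dissociated from striatum, enriched with magnetic beads for the astrocyte surface antigen ACSA2 and sequenced with the 10x Genomics Chromium 3′ chemistry. No transgene or treatment was used, and the groups differed by age. Several animals were pooled for each preparation, so the spread between libraries is that between pools, and because the mice were inbred the counts do not separate the maternal from the paternal copy. The age effect and the preparation of each age cannot be told apart, since each library held 1 age.

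An imprinted gene is transcribed mainly from the copy inherited from 1 parent, and the choice is carried by DNA methylation set in the germ line. Many imprinted genes control fetal growth: those read from the paternal copy tend to promote it and those read from the maternal copy tend to restrain it. A group of them is known to be high together in fetal organs and to fall together after birth. In the brain, *Igf2* is known to be made chiefly by vessels, choroid plexus and meninges rather than by neurons.

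The members are spread over 5 chromosomes (GENCODE M21 annotation of GRCm38, whole gene spans). *Igf2*, which encodes insulin-like growth factor 2, lies at chr7:142650766-142666816 on the minus strand, and *H19*, a long non-coding RNA, lies beside it at chr7:142575529-142578143 on the minus strand. *Cdkn1c*, which encodes the cyclin-dependent kinase inhibitor p57, lies further along the same chromosome at chr7:143458339-143461050 on the minus strand. The zinc-finger gene *Peg3* is at chr7:6703892-6730431 on the minus strand, and *Ndn*, which encodes necdin of the MAGE family, is at chr7:62346569-62350262 on the plus strand. *Dlk1*, which encodes a transmembrane protein related to Notch ligands, is at chr12:109452823-109463336 and the long non-coding RNA *Meg3* is at chr12:109541001-109571726, both on the plus strand. The zinc-finger transcription factor gene *Plagl1* is at chr10:13060504-13131694 on the plus strand. *Grb10*, an adaptor that dampens signalling by the insulin and IGF1 receptors, is at chr11:11930508-12038683 on the minus strand, and *Igf2r*, the receptor that takes up and degrades IGF2, is at chr17:12682406-12769664 on the minus strand.

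Promoter windows of *Dlk1*, *Meg3* and *Plagl1* are shown because these genes had much higher counts in one set of P3 astroglial sub-clusters than in another. Each window runs from 250 bases before to 50 bases after the annotated start (RefSeq, GRCm38.p6, 5′ to 3′ on the gene's strand), and the capitals mark each CG dinucleotide, the site of the DNA methylation by which imprints are carried. The *Dlk1* window is chr12:109452573-109452872, the *Meg3* window is chr12:109540746-109541045 and the *Plagl1* window is chr10:13090582-13090881.
Dlk1: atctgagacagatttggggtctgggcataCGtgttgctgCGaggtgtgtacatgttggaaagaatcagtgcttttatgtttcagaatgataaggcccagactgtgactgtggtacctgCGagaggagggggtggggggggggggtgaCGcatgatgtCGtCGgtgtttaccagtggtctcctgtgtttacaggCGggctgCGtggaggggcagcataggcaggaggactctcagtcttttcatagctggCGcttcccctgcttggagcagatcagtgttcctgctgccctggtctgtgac
Meg3: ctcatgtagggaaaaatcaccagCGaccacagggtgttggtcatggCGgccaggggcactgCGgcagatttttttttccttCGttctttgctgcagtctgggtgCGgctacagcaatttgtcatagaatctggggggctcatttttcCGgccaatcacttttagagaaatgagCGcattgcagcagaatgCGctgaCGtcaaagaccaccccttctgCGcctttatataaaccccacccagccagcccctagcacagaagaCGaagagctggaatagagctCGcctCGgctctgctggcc
Plagl1: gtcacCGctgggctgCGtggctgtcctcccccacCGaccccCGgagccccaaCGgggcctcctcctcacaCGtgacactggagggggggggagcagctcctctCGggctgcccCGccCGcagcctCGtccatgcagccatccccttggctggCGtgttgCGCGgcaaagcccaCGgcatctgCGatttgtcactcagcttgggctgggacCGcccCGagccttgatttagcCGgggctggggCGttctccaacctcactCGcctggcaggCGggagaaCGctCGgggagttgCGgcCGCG
The *Dlk1* window holds 9 CG dinucleotides, the *Meg3* window 13 and the *Plagl1* window 26, against a median of 7 over all 32851 windows of the table (quartiles 3 and 20). RefSeq windows were matched by symbol for 8 of the 10 genes, giving 13 windows, with *H19* and *Cdkn1c* not among them. The CG count of the other windows ran from 1 in the second *Meg3* window and 2 in one of the 4 *Igf2* windows to 34 in *Igf2r* and 45 in one of the 2 *Grb10* windows. The motif TATAAA, searched on both strands, occurred in 1 of the 13 windows, the first *Meg3* window, and in 13.6% of all windows. The data hold no methylation measurement, so these counts describe the sequence only.

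The libraries held 32193875, 37795021 and 35629869 unique molecular identifiers (UMIs, 1 per captured RNA molecule) at P3 and 10522151, 7144779 and 5471573 at 3m. Of 16690 barcodes, 14373 passed the study's filter, and 9992 of these (8874 at P3 and 1118 at 3m) fell in astroglial sub-clusters deposited by the authors. Levels are UMIs per 1000000 UMIs of the cells summed (CPM). Replicates are numbered 1 to 3 at each age as in the labels, and CPM are listed in that order. In the summed astroglial cells, astrocyte markers gave 4770 to 5737 CPM at P3 and 13027 to 13911 CPM at 3m. Oligodendrocyte markers gave 5.10 to 6.27 CPM at P3 and 703 to 1853 CPM at 3m. The same barcode sequence occurred in more than 1 library 37 times, 45 astroglial cells were concerned, and leaving them out changed no age call of a member in astroglia.

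Of the 24 deposited clusters, those with at least 20 cells of an age in every library were ranked by library mean. Among these, each of the 10 genes had its highest mean in a vessel-associated or a P3 astroglial cluster. Clusters under this limit, such as the neuronal cluster NEU_22, were not ranked. The clusters were built from all genes, so levels between them are given as a description, with no test. *Igf2*, the growth factor, had its highest level in the P3 cells of the pericyte cluster PER_6 (628 cells), with 1307, 467 and 697 CPM. It had 208 CPM in the P3 endothelial cluster END_7 (605 cells), 102 CPM in the 3m cluster LOW_21 (68 cells) and 43.9 CPM in the 3m endothelial cluster END_17 (163 cells). PER_6 did not overlap the next cluster in any library, whereas in the 124 P3 microglia *Igf2*, *H19* and *Grb10* each had 0 UMIs, which allows up to 3.33 CPM (3 UMIs, counting error only). The 16 cells of PER_6 from 3m libraries had 659 CPM of *Igf2*.

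The receptor *Igf2r* and the adaptor *Grb10* were also highest in vessel-associated clusters. *Igf2r* reached 77.3 ± 7.16 CPM in P3 PER_6 (mean ± SD, n = 3 libraries) and 46.0 ± 8.11 CPM in END_7, with LOW_21 between them at 57.6 ± 50.9 CPM, which overlaps both. *Grb10* was at 91.7 ± 6.85 CPM in PER_6 and 87.2 ± 6.32 CPM in END_7, and these ranges overlap. *Dlk1* was at 77.0 ± 12.02 CPM in PER_6 and at 38.2 ± 12.1 CPM in the astroglial cluster AST_P3_1 (1471 cells). *Cdkn1c*, the cell cycle inhibitor, was at 299 ± 40.7 CPM in 3m END_17 and 271 ± 90.1 CPM in P3 PER_6, which overlap, and at 82.5 ± 11.0 CPM in END_7.

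Of the others, *H19*, *Peg3*, *Plagl1* and *Ndn* had their highest library means in astroglial clusters. *H19*, although it neighbours *Igf2* and is controlled together with it in many fetal tissues, was at 1.85 CPM (8 UMIs) in P3 PER_6 and at 25.1, 23.7 and 24.2 CPM in AST_P3_1. *H19* was thus low in the cluster where *Igf2* was highest, and Pearson's r of their log2(CPM + 1) over 23 clusters of at least 50 cells was −0.08, a description over clusters that share libraries. *Plagl1* was at 138 ± 29.6 CPM in AST_P3_11 (412 cells) and 96.4 ± 5.09 CPM in AST_P3_1, and the next cluster, AST_P3_0, had 11.9 ± 2.69 CPM. *Ndn* was highest in the same clusters, at 172 ± 26.7 CPM in AST_P3_11 and 119 ± 19.7 CPM in AST_P3_1. *Peg3* had 72.2 ± 3.08 CPM in AST_P3_1 and 61.6 ± 20.8 CPM in the P3 cluster GPC_8, which overlap, 50.1 ± 12.2 CPM in the 3m cluster AST_3m_5, and 15.9 ± 7.08 CPM in P3 PER_6, 9.39 ± 4.52 CPM in END_7 and 3.89 ± 1.45 CPM in END_17. *Meg3*, a non-coding RNA known to be abundant in neurons, had its highest library mean in P3 PER_6, with 714, 215 and 176 CPM, which overlap AST_P3_1 (180 ± 105 CPM). The neuronal cluster NEU_22, too small for a mean over libraries (53 P3 cells, 14, 23 and 16 by library), had 1565 CPM of *Meg3* pooled.

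**Figure D1:**
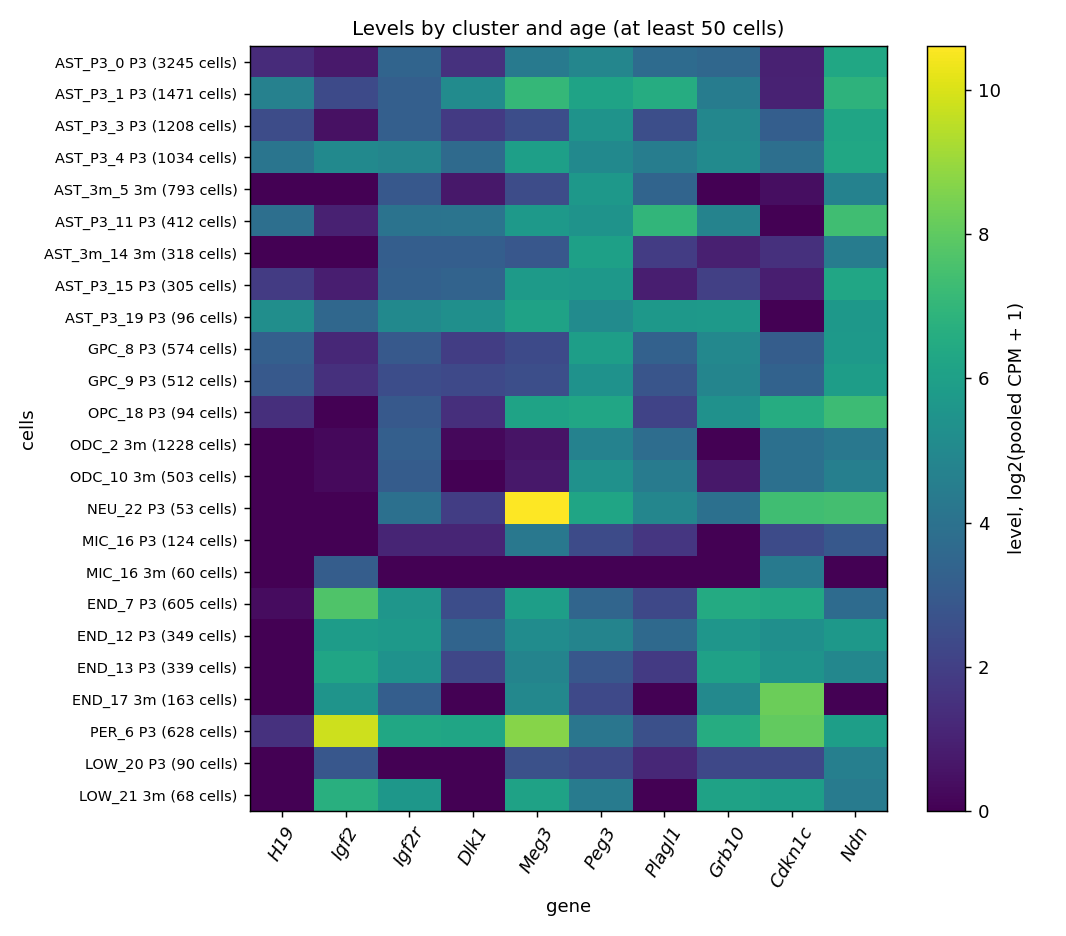
Level of each of the 10 genes (columns) in the deposited clusters with at least 50 cells of an age (rows), as log2(pooled CPM + 1) in colour. *Igf2* is highest in the pericyte cluster at P3 (893 CPM pooled), *H19* is at 1.85 CPM there, and *Plagl1* stands out in 2 P3 astroglial clusters.

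Within P3 astroglia, *H19*, *Dlk1*, *Meg3* and *Plagl1* were concentrated in the sub-clusters that the study proposes may come from outside the striatum. In the study, sub-clusters 3, 4, 5, 10, 12 and 15 grouped with non-telencephalic astrocytes of a reference atlas. It proposes that they may be contaminants from adjacent regions, and they are called non-telencephalic here. Sub-clusters 1, 9 and 11 resembled 0 and lay among telencephalic reference astrocytes. They are called telencephalic here, as are 0 and 2, which lie with 6 and 8 on the study's main trajectory. *Plagl1* gave 110, 96.9 and 77.8 CPM in non-telencephalic cells and 11.6, 7.59 and 8.51 CPM in telencephalic cells of the same libraries. *Meg3* gave 225, 101 and 96.4 CPM against 23.9, 11.1 and 18.0 CPM. The 2 sets did not overlap for either gene, and *Meg3* was highest in replicate 1, which supplied 151 of the 3006 non-telencephalic cells.

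*Dlk1* had 31.8, 27.2 and 31.7 CPM in non-telencephalic and 0.981, 2.21 and 4.13 CPM in telencephalic P3 cells. *H19* had 27.6, 25.4 and 19.5 CPM against 2.68, 2.03 and 2.44 CPM. Both were higher in the non-telencephalic cells in each library. *Ndn* (112 against 76.9 CPM, pooled) and *Peg3* (58.8 against 33.8 CPM) differed less, and *Cdkn1c* was lower there (1.93 against 3.12 CPM). *Igf2* gave 7.08 against 0.593 CPM, and sub-cluster 12 had 74.7 CPM of it beside 594 CPM of endothelial and 2577 CPM of mural markers in P3 replicate 3, whose part in this level was not tested. Of the 284 cells of sub-cluster 12, 273 came from P3 replicate 3.

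The non-telencephalic sub-clusters were not alike. Sub-clusters 3 (781 cells) and 5 (730 cells) had 33.6 and 37.8 CPM of *Dlk1*, 136 and 129 CPM of *Meg3* and 96.3 and 94.0 CPM of *Plagl1*. Sub-cluster 10 (332 cells) had the highest *Plagl1* (140 CPM) and *Ndn* (175 CPM) but 6.65 CPM of *Dlk1* and 35.6 CPM of *Meg3*. Sub-cluster 15 (145 cells) had the highest *H19* (48.7 CPM), beside 1876 and 2230 CPM of ependymal markers in P3 replicates 2 and 3, whose part was not tested. Sub-clusters 2, 6 and 8, of which 6 and 8 hold cycling cells, had the least *Meg3* of the P3 sub-clusters (3.19, 4.86 and 5.13 CPM). Over the 13 P3 sub-clusters the pairs of members with the highest Pearson's r were *H19* with *Dlk1* (0.84), *Dlk1* with *Meg3* (0.83) and *Igf2* with *Igf2r* (0.80), as a description. In the 3m sub-clusters 7, 13, 14 and 16, *H19* and *Igf2* had 0 UMIs.

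**Figure D2:**
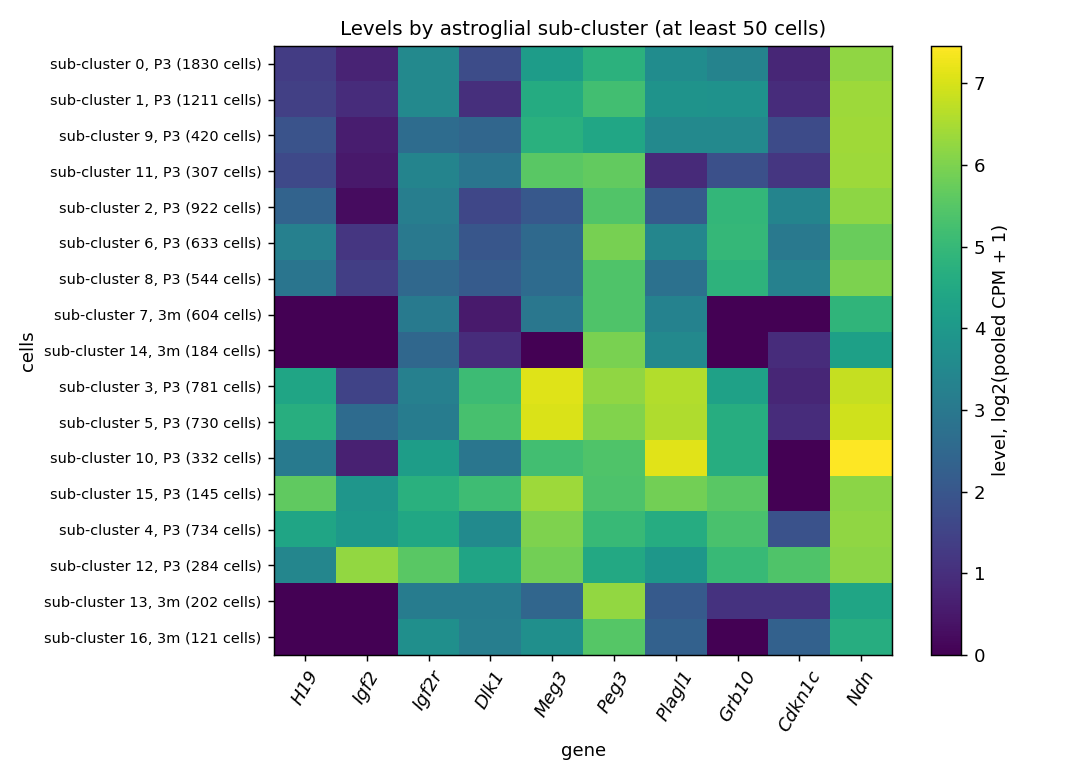
Level of the 10 genes (columns) in the astroglial sub-clusters of at least 50 cells (rows, by age), as log2(pooled CPM + 1) in colour. *Dlk1*, *Meg3* and *Plagl1* are high in sub-clusters 3 and 5, and *Plagl1* without *Dlk1* in sub-cluster 10.

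Along the deposited pseudotime, which orders 5879 astroglial cells from cycling P3 cells to 3m astrocytes, *H19*, *Grb10* and *Cdkn1c* were lower in late than in early P3 bins and at or near 0 at 3m, while *Peg3* and *Ndn* took other courses. The order was computed from all genes, so the course is a description. *Grb10* was at 38.1 CPM in bins 2 to 4 (263 cells), 29.1 CPM in bins 11 and 12 (1270 cells), 10.02 CPM in bins 13 and 14 (2901 cells, P3 cells alone in each case) and 0 in the 786 3m cells of bins 15 to 19. *H19* was at 8.60, 4.81, 1.90 and 0 CPM in the same stages. Both were thus at their lowest P3 level in bins 13 and 14. The 9 P3 cells placed in bins 15 to 19 are too few to read and are left out.

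*Cdkn1c* stayed between 7.59 and 8.74 CPM up to bins 11 and 12, with 15.7 CPM in bin 11, and was at 0.861 CPM in bins 13 and 14. *Peg3* was at 68.2 CPM in bins 2 to 4, at 29.3, 24.5 and 29.3 CPM in bins 13 and 14 and at 58.7, 50.2 and 33.8 CPM in the 3m bins. *Ndn* was highest late in the P3 course, at 77.0 CPM in bins 13 and 14, and at 25.2 CPM at 3m. *Meg3*, low in the cycling bins (4.30 CPM), was at 15.9 CPM in bins 13 and 14 and 4.61 CPM at 3m, where 11 of its 15 UMIs came from the 22 cells of bin 15 and bins 16, 17 and 18 had 3.92, 1.36 and 0.784 CPM. *Plagl1* stayed between 4.65 and 11.8 CPM in the P3 stages up to bins 13 and 14 and at 3m. *Peg3* therefore shared the lower late P3 level of *H19*, *Grb10* and *Cdkn1c* but not their 3m level. *Ndn* and *Meg3* were higher in P3 cells of bins 13 and 14 than in those of bins 2 to 4.

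**Figure D3:**
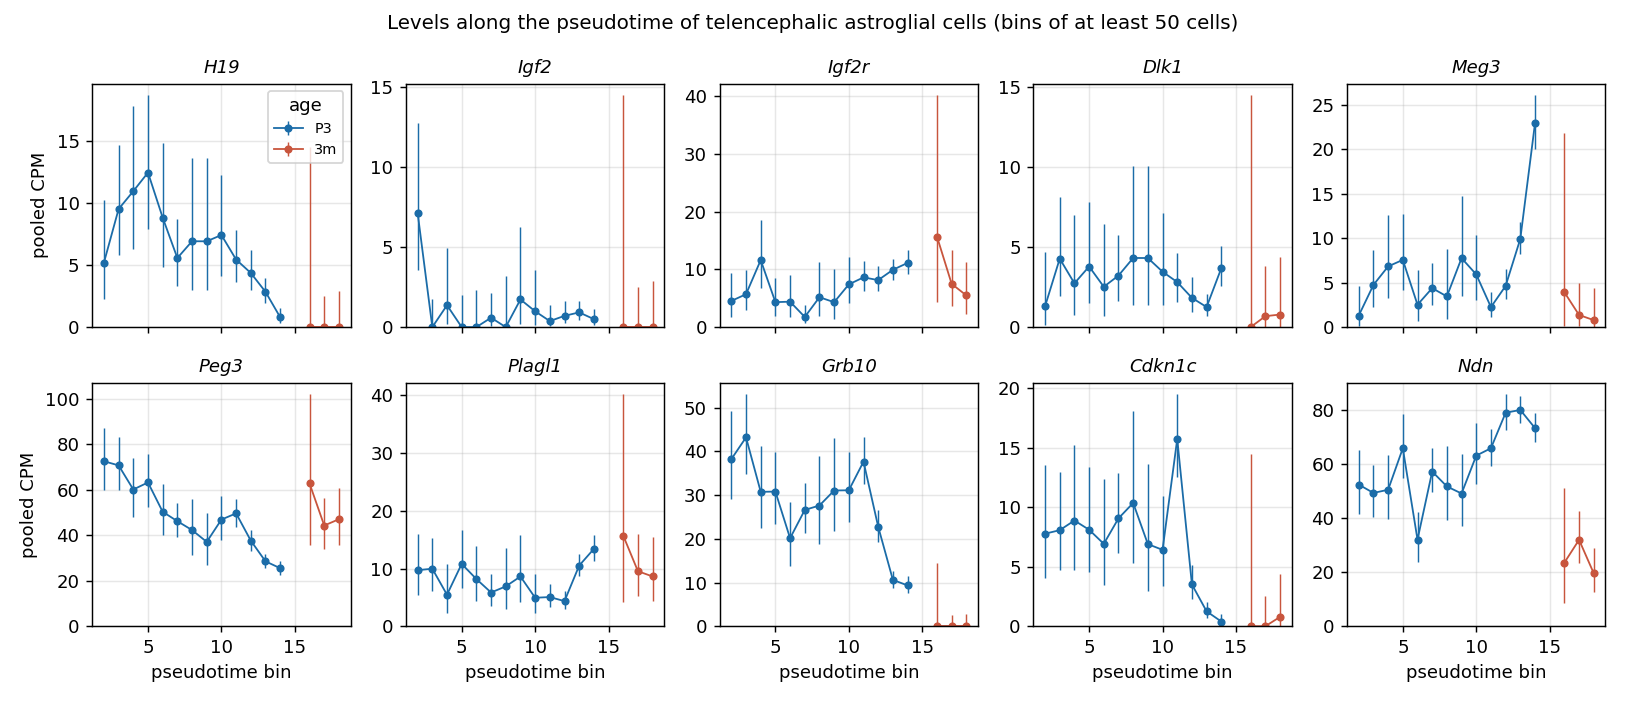
Pooled CPM (vertical axes, with 95% Poisson intervals that cover counting error only) of each gene in pseudotime bins of at least 50 cells (horizontal axes, early to late), P3 in blue and 3m in red. *Grb10* goes from 38.1 CPM in bins 2 to 4 to 0 at 3m, and *Peg3* has a low at the end of P3.

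Between P3 and 3m, *Ndn*, *Meg3* and *Plagl1* fell in astroglial cells summed per library, *Grb10*, *Cdkn1c*, *H19* and *Igf2* were at 0 to 3 UMIs at 3m, and no member was called higher. The *Meg3* and *Plagl1* calls did not hold in telencephalic and trajectory sub-clusters alone. A gene was called when the Benjamini-Hochberg adjusted p of edgeR's quasi-likelihood test over all 13530 genes tested was at most 0.05 and the fold at least 2 in either direction. By this rule 16.3% of all genes tested were lower and 15.8% were higher at 3m, and the median log2 fold change (3m over P3) was −0.04. All 10 members passed the low-count filter and 7 were called lower. *H19*, *Igf2*, *Grb10*, *Cdkn1c* and *Dlk1* passed only with their P3 libraries, so for the first 4 of these, which were called, the count of 7 is no support and only ratios or bounds are given. The libraries of the 2 ages did not overlap for the 7 called members, all lower at 3m, against 37.7% of all genes tested that were lower and 21.3% that were higher without overlap. For the same 4 genes, at 0 to 3 UMIs at 3m, this lack of overlap is no support either.

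The ligand and its regulators had few or no UMIs at 3m, apart from *Igf2r*. *Grb10* gave 18.5, 19.04 and 23.9 CPM at P3 and 0, 0.542 and 0 CPM at 3m (1585 UMIs against 1), a ratio of 91.5 with a 95% counting interval of 16.4 to 3615. *Igf2* gave 1.21, 0.980 and 4.03 CPM at P3 and 0 UMIs at 3m, so it was at least 3.00-fold lower, taking 3 UMIs over the group as the limit. Its call did not hold when any 3m library was left out (adjusted p = 0.0817 to 0.109, edgeR). *Igf2r* gave 8.82, 8.002 and 11.1 CPM against 4.32, 7.59 and 8.15 CPM, which overlap (log2 fold change −0.23, SE 0.296, adjusted p = 0.539). Endothelial markers in the astroglial sums gave 2.37, 1.86 and 12.7 CPM at P3 and 0, 1.63 and 2.72 CPM at 3m. Mural markers gave 86.7, 88.5 and 146 CPM at P3 and 101, 66.7 and 73.3 CPM at 3m, with 1 of the 5 tested higher and 2 lower, and the pericyte marker *Rgs5* had 2.69, 2.42 and 22.2 CPM at P3, highest in replicate 3 as was *Igf2*. The part of these in the *Igf2* values was not tested, and cells without a UMI of any vascular marker gave 1.11, 0.514 and 1.70 CPM of *Igf2* at P3 and 0 at 3m, which was below the filter of the test.

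Of the non-coding RNAs, *H19* gave 5.06, 8.52 and 8.38 CPM at P3 and 0 at 3m (580 UMIs against 0), at least 11.2-fold lower. Ependymal markers, which were high in the sub-cluster with the most *H19*, summed to 31.0, 88.8 and 137 CPM at P3 and to 5.18, 7.05 and 7.47 CPM at 3m, and their part was not tested. *Meg3* gave 29.6, 27.7 and 38.1 CPM against 1.73, 10.3 and 1.36 CPM (log2 fold change −2.46, SE 0.413, adjusted p = 0.000298), and 3m replicate 2 stood above the other 3m libraries. Without it the log2 fold change of *Meg3* was −4.24. *Dlk1*, the neighbour of *Meg3*, gave 2.96, 7.28 and 12.4 CPM against 0.864, 5.42 and 0 CPM, which overlap (−1.45, SE 0.783, adjusted p = 0.143). *Dlk1* was called lower with the replicate number as a block (−1.48, adjusted p = 0.0167), without 3m replicate 2 (−4.14, adjusted p = 0.0290) and without P3 replicate 1 (−1.78, adjusted p = 0.0114).

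Of the nuclear and cell cycle proteins, *Ndn* fell from 78.3 ± 5.04 to 23.4 ± 6.69 CPM (mean ± SD, n = 3), with 78.2, 83.4 and 73.3 CPM at P3 and 18.1, 30.9 and 21.1 CPM at 3m (−1.52, SE 0.214, adjusted p = 7.08e-05). *Cdkn1c* gave 3.54, 4.02 and 4.56 CPM against 0.864, 0.542 and 0.679 CPM (314 UMIs against 3), a ratio of 6.04 with a counting interval of 2.05 to 29.4. *Plagl1* gave 16.3, 25.7 and 28.4 CPM against 9.50, 7.05 and 8.15 CPM (−1.35, SE 0.300, adjusted p = 0.00235). *Peg3* behaved otherwise, with 49.3, 41.2 and 39.6 CPM at P3 and 63.1, 54.8 and 43.5 CPM at 3m, which overlap, and its log2 fold change of 0.49 (SE 0.178, adjusted p = 0.0343) was under the fold threshold. Oligodendrocyte clusters, whose markers were in the 3m astroglial sums, had 24.8 and 40.3 CPM of *Peg3*, 17.8 and 23.3 CPM of *Ndn* and 0.494 and 0.587 CPM of *Meg3*, and their part in the age values was not tested.

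The share of non-telencephalic cells differed between libraries, from 151 to 1949 cells at P3 and 17 to 261 cells at 3m, and 2 of the age calls did not hold without them. In telencephalic and trajectory sub-clusters alone, *Plagl1* gave 11.0, 7.81 and 7.996 CPM at P3 and 10.0, 10.3 and 8.05 CPM at 3m, which overlap (log2 fold change 0.25, adjusted p = 0.492). *Meg3* gave 18.6, 9.24 and 13.9 CPM against 0, 14.4 and 0.805 CPM there (−1.40, adjusted p = 0.0526). *Ndn* was still lower (−1.32, adjusted p = 0.000115), and *Grb10*, *H19* and *Cdkn1c*, with 0, 0 and 1 UMIs at 3m, were the other calls among the 9 members tested in these cells. The stricter cell filter also left 4 of 10 called, without *Igf2*, *Plagl1* and *Cdkn1c*.

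**Figure D4:**
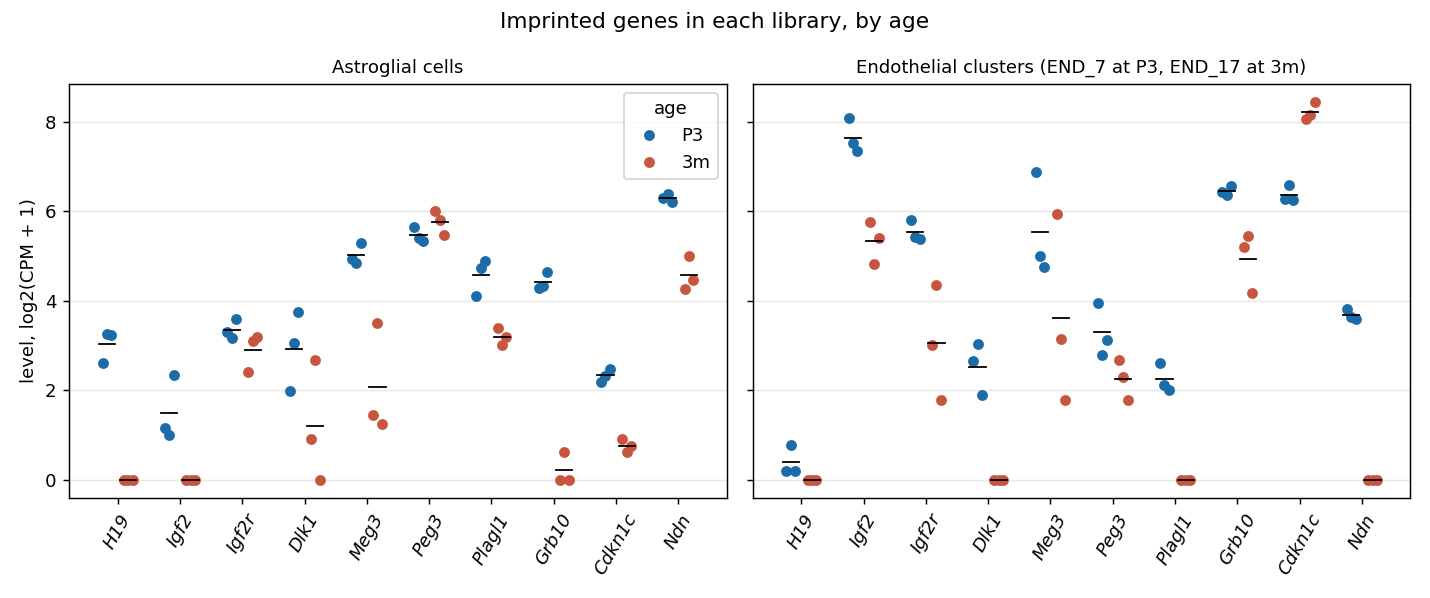
CPM of the 10 genes in each library (points, log2(CPM + 1) scale) at P3 and 3m, in summed astroglial cells and in the endothelial clusters, with a black line at the mean of the log2 values. In astroglia 7 genes do not overlap between ages and are lower at 3m (37.7% of all genes tested are). Of these 7, *H19*, *Igf2*, *Grb10* and *Cdkn1c* passed the low-count filter only with their P3 libraries. In endothelium *Cdkn1c* is the one whose 3m libraries all lie above P3.

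In endothelial cells, *Cdkn1c* rose with age, *Igf2* and *Grb10* fell, and *Igf2r* and *Ndn* were at 10 and 0 UMIs at 3m. Of the 7 members that passed the low-count filter, 1 was called higher and 4 lower. The comparison set END_7 at P3 (173, 172 and 260 cells) against END_17 at 3m (59, 47 and 57 cells), and 11.6% of the 10271 genes tested were called higher and 10.7% lower. Of the 7 members tested, 1 was higher and 5 were lower at 3m without overlap of the libraries, against 23.9% and 21.3% of all genes tested. *Igf2r*, *Meg3*, *Peg3* and *Ndn* passed the filter only with their P3 libraries. For these genes the counts of members called lower, or lower without overlap, are no support. *Cdkn1c* gave 77.1, 95.2 and 75.3 CPM at P3 and 269, 284 and 346 CPM at 3m (log2 fold change 1.76, SE 0.188, adjusted p = 6.08e-07, edgeR). Mural markers in the endothelial clusters summed to 2090 to 3517 CPM at P3 and 6452 to 7464 CPM at 3m, while LOW_21, a 3m cluster with 36334 to 50079 CPM of these markers, had 0, 127 and 96.7 CPM of *Cdkn1c* and the pericyte cluster PER_6 had 271 ± 90.1 CPM at P3 and 268 CPM in its 16 cells of 3m. Of the other marker lists in the endothelial clusters, endothelial markers gave 3655 to 5134 CPM at P3 and 8850 to 14042 CPM at 3m, astrocyte markers 90.5 to 120 and 228 to 969 CPM, and oligodendrocyte markers 0.711 to 1.43 and 117 to 607 CPM. Fibroblast markers gave 58.1 to 103 CPM at P3 and 19.5 to 78.3 CPM at 3m, and both that were tested, *Col3a1* and *Col1a2*, were called lower, the direction of *Igf2*. The part of any of these in the changes was not tested.

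*Igf2* fell from 272, 183 and 161 CPM to 53.4, 27.2 and 41.4 CPM (−2.35, SE 0.251, adjusted p = 6.31e-07), and its receptor *Igf2r* from 55.3, 41.9 and 40.8 CPM to 7.12, 19.5 and 2.43 CPM (−2.58, SE 0.398, adjusted p = 5.39e-05). *Grb10* fell from 85.9, 81.7 and 94.1 CPM to 35.6, 42.8 and 17.03 CPM (−1.60, SE 0.258, adjusted p = 8.52e-05). In each case every 3m library lay below every P3 library. *Ndn* had 13.1, 11.4 and 11.1 CPM at P3 (222 UMIs) and 0 UMIs at 3m, at least 4.89-fold lower.

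*Meg3* gave 116, 31.2 and 26.0 CPM at P3 and 60.5, 7.78 and 2.43 CPM at 3m, with replicate 1 the highest at both ages. It was not called (−1.09, SE 0.627, adjusted p = 0.197), but with the replicate number as a block it was (−1.36, adjusted p = 0.000225), and likewise without 3m replicate 1 (−3.78, adjusted p = 0.0133). *Peg3* gave 14.5, 5.95 and 7.72 CPM against 5.34, 3.89 and 2.43 CPM (−1.32, SE 0.658, adjusted p = 0.135). *Dlk1* (5.26, 7.14 and 2.71 CPM), *Plagl1* (5.12, 3.33 and 2.98 CPM) and *H19* (5 UMIs in all) had 0 UMIs at 3m and were below the filter. A level of 3 UMIs in the 3m endothelium is 2.44 CPM, so *Dlk1* was at least 1.92-fold and *Plagl1* at least 1.59-fold lower. The median P3 cell held 26510 UMIs and the median 3m cell 5934, and with sums thinned to the smallest library, an alternative chosen after seeing the data, *Igf2*, *Grb10* and *Cdkn1c* could be tested and all 3 kept their calls.

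The interaction of age and cell class was called for 5 members, each with 0 to 10 UMIs at 3m in 1 of the 2 classes. A fit with cell class, age and their interaction called 8.34% of 12766 genes with a higher and 7.7% with a lower age effect in endothelium. *Cdkn1c* had opposite directions, higher at 3m in endothelium and lower in astroglia (adjusted p = 2.82e-06, edgeR). *Grb10* was lower at 3m in both classes and less so in endothelium (adjusted p = 0.000168). *Igf2r*, called lower in endothelium alone, had a lower age effect there (interaction log2 fold change −2.26, SE 0.575, adjusted p = 0.00634), and *Peg3* likewise had a lower age effect there (−1.90, SE 0.595, adjusted p = 0.0249). For *Ndn* the interaction was called (adjusted p = 0.0219), but with 0 UMIs at 3m in endothelium it has no finite size: *Ndn* was at least 4.89-fold lower there and lower by a pooled ratio of 3.23 (95% counting interval 2.67 to 3.94) in astroglia. The *Cdkn1c* and *Grb10* interactions rest on 3 and 1 UMIs in astroglia at 3m. Those of *Igf2r* and *Peg3* rest on 10 and 5 UMIs in endothelium at 3m. In the age fits, each of the 5 passed the low-count filter in the class with few 3m UMIs only with its P3 libraries. These 5 calls are therefore no support for a difference between the classes. For *Meg3* the interaction was 1.43 (adjusted p = 0.350).

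Among P3 astroglia, cycling cells had more *Cdkn1c* and less *Meg3* and *Plagl1* than non-cycling cells. Cells with a UMI in at least 2 of *Mki67*, *Top2a* and *Cdk1* were classed as cycling (1312 of 8874), and the sums of both classes were compared with library as a block. Of 13306 genes tested, 8.94% were called higher and 8.06% lower in cycling cells, beside 1 and 2 of the 10 members. Without overlap of the libraries, 2 members were higher and 3 lower in cycling cells, against 18.7% and 27.8% of all genes tested. *Cdkn1c*, an inhibitor of cell division, gave 7.27, 6.17 and 8.31 CPM in cycling and 2.11, 3.18 and 3.27 CPM in non-cycling cells (log2 fold change 1.42, SE 0.206, adjusted p = 4.30e-05, edgeR). *Meg3* gave 8.89, 5.59 and 9.11 CPM against 37.5, 36.4 and 48.0 CPM (−2.30, SE 0.115, adjusted p = 8.74e-10), and *Plagl1* gave 10.2, 9.43 and 10.7 CPM against 18.6, 32.1 and 34.5 CPM (−1.40, SE 0.140, adjusted p = 1.15e-06). The median cycling cell held 14781 UMIs and the median non-cycling cell 6685. With each cell thinned to 2000 UMIs before it was classed, *Meg3* (−2.19, adjusted p = 8.74e-07) and *Plagl1* (−1.80, adjusted p = 7.09e-05) were still called, and *Cdkn1c* was below the filter, so its difference could not be tested at equal depth.

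*Grb10* was higher in cycling cells by a log2 fold change of 0.99 (SE 0.091, adjusted p = 4.47e-07), just under the threshold of 1, with 30.2, 27.4 and 35.6 CPM against 14.1, 15.8 and 19.9 CPM and no overlap. *Ndn* had 55.8, 57.5 and 55.3 CPM against 86.9, 93.4 and 79.4 CPM (−0.53, adjusted p = 5.38e-06), also under the threshold. Differences under the threshold were also found for *Peg3* (0.49, adjusted p = 0.00199), *H19* (0.45, adjusted p = 0.0494), *Dlk1* (−0.84, adjusted p = 0.00161) and *Igf2r* (−0.41, adjusted p = 0.0344), and *Igf2* had 0.29 (adjusted p = 0.504).

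The study places the cycling sub-clusters on its main trajectory, so the comparison was repeated without non-telencephalic sub-clusters, an alternative chosen after seeing the data. *H19* (log2 fold change 1.69, adjusted p = 3.53e-09), *Grb10* (1.14, adjusted p = 7.27e-14) and *Cdkn1c* (1.29, adjusted p = 5.70e-07) were then higher in cycling cells, and *Meg3* was lower (−1.87, adjusted p = 8.38e-14). *Plagl1* was at −0.15 (adjusted p = 0.389), so its difference over all P3 astroglia was not found among these cells, and *Dlk1* was at 0.28 (adjusted p = 0.373).

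**Figure D5:**
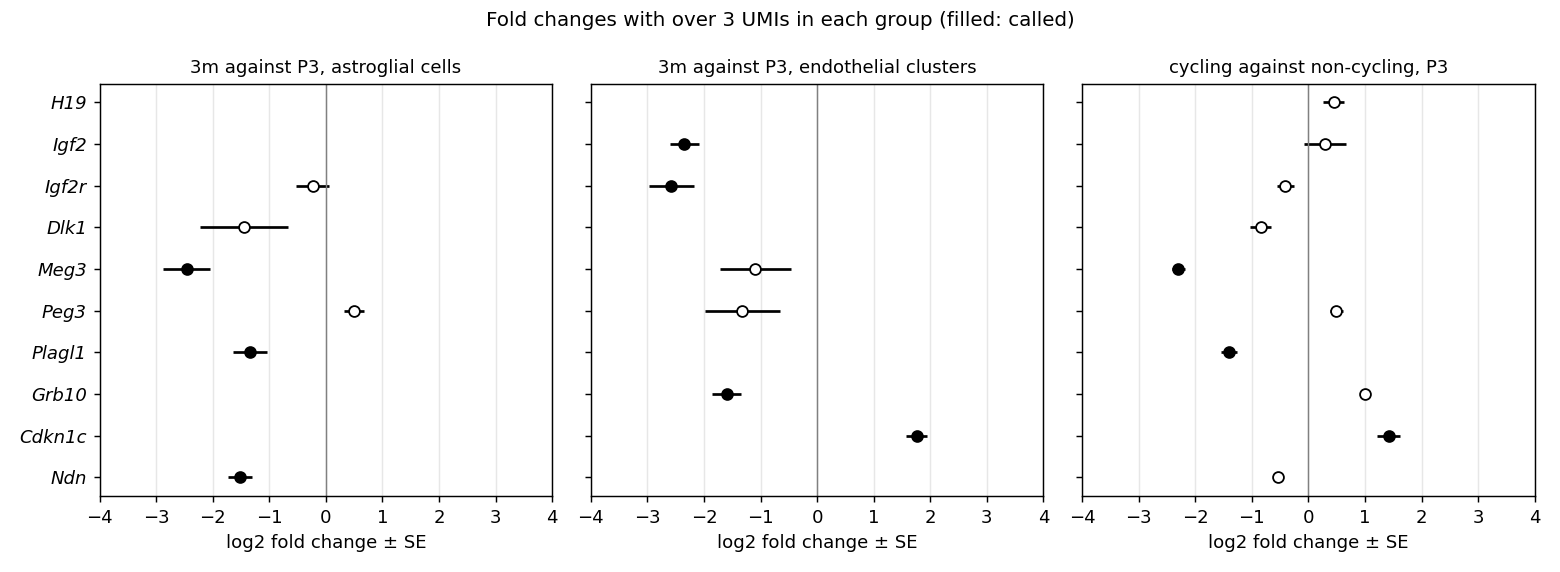
Log2 fold changes (horizontal axis) with standard errors for age in astroglia, age in endothelium and cycling against non-cycling P3 astroglia, for members with over 3 UMIs in each group, with filled points for called genes. *Cdkn1c* lies to the right of 0 with age in endothelium (1.76) and in cycling cells (1.42).

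Of 50 other imprinted genes, 36 were tested in astroglia, and 6 were called higher and 10 lower at 3m, beside 15.8% and 16.3% of all genes tested. Some, such as *Peg12*, *Asb4*, *Airn*, *Usp29* and *Qpct* (0 to 3 UMIs at 3m), could pass the low-count filter only with their P3 libraries. Others, such as *Zim1* and *Slc22a18*, could pass it only with their 3m libraries. For such genes these counts are no support. The median log2 fold change of the 36 was 0.19, against −0.04 over all genes. The 4 most abundant of the 36 were *Gnas*, *Nnat*, *Gatm* and *Pon2*. *Gnas*, which encodes the stimulatory G protein alpha subunit, went from 1231, 1097 and 1059 CPM to 587, 630 and 543 CPM (−0.76, adjusted p = 0.00530, under the fold threshold), and *Gatm*, an enzyme of creatine synthesis, fell from 240, 225 and 250 CPM to 44.9, 132 and 63.2 CPM (−1.35, adjusted p = 0.00205). *Nnat* (−0.48, adjusted p = 0.379) and *Pon2* (0.30, SE 0.173) were not called. In endothelium 25 were tested, with 3 higher and 3 lower (11.6% and 10.7% of all genes), and in cycling cells 34, with 4 higher and 1 lower (8.94% and 8.06%).

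Of 15 genes of the insulin-like growth factor axis, 12 were tested in astroglia, 1 was called higher and 8 lower at 3m (15.8% and 16.3% of all genes), with a median log2 fold change of −2.42 that includes genes with few UMIs at 3m. *Igfbp3*, *Igf2bp2* and *Pappa*, with 0 UMIs at 3m, and *Igfbp7*, with 5, could pass the low-count filter only with their P3 libraries. Lower calls of these genes are no support for a shared fall. The binding protein genes *Igfbp2* (983, 757 and 554 CPM against 160, 55.9 and 105 CPM, −2.68, adjusted p = 2.18e-05) and *Igfbp4* (−3.99, adjusted p = 4.86e-07) fell, whereas *Igfbp5* (0.41, adjusted p = 0.120) and the receptor gene *Igf1r* (0.32, adjusted p = 0.196) were not called. In endothelium 8 were tested, with 1 higher and 4 lower (11.6% and 10.7% of all genes), and *Igf1r* rose (1.20, adjusted p = 9.58e-05). The member *Igf2* thus fell in endothelium beside a rise of *Igf1r*, the receptor through which IGF2 signals.

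Genes whose level over the 23 clusters was most like that of a member were vessel genes for *Igf2*: *Igfbp7* (Pearson's r 0.95), *Ndufa4l2* (0.95) and *Col4a2* (0.95). The nearest gene to *Plagl1* was *Cnih3* (0.93) and to *Igf2r* *Nck2* (0.90). For *Peg3* it was *Krt10* (0.89), for *Cdkn1c* *Hpcal1* (0.89), for *H19* *Plch1* (0.89) and for *Grb10* *Pde5a* (0.87). *Ndn* was nearest to *Rgs17* (0.86), *Meg3* to *Nagk* (0.83) and *Dlk1* to *Pawr* (0.81). These values describe clusters that share libraries, and no test was made.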

How the data were processed

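The authors aligned reads to mm10 and counted UMIs with Cell Ranger, and the deposited table holds raw counts per gene and barcode with no normalisation. The deposited cell table gives the clusters and astroglial sub-clusters made by the authors with Seurat and a pseudotime score from Slingshot. Barcodes with over 500 genes and under 10% mitochondrial UMIs were kept, as in the study, and doublets were not removed.

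Counts were summed per library and cell class. CPM is relative to all UMIs of the sum. Sums were tested with edgeR 4.0.16 in R 4.3.3 (TMM scaling, filterByExpr, quasi-likelihood test, Benjamini-Hochberg adjustment over all genes tested), two-sided, and the fit was tested on simulated data. The marker lists, the other imprinted genes, the insulin-like growth factor list and the 10 members were chosen with earlier results of these data known. All 10 members are described. Of the 2 context lists, the 4 genes with the highest astroglial CPM are named, and for likeness the first gene by Pearson's r (the first 3 for *Igf2*). Genes named outside these rules were chosen after their values were seen.

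The labels do not pair libraries across ages, and the main age fits used no block. Only the alternative fits with the replicate block took equal numbers as pairs. Deviations of libraries with the same number had correlations of 0.384, 0.158 and 0.131 over 8067 genes, and other pairs −0.271 to 0.178. Only replicate 1 stood apart from the other numbers, so calls with this block rest on an assumed pairing. Alternatives were DESeq2 1.42.0, other scalings, filters and cell sets, thinning, and leaving out each library. Rejected barcodes were used in no comparison. 3m astroglial sums held 1157485 to 1843998 UMIs, against 22327104 to 30617140 at P3, so 1 UMI is 0.542 to 0.864 CPM in a 3m sum. The labels do not tie libraries to single animals, so p-values measure the spread between pools.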

Additional observations from a re-analysis of the deposited data

Results flagged for a closer look

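The interaction of age and cell class, endothelial clusters against astroglial cells, was called by edgeR for *Cdkn1c* (adjusted p = 2.82e-06), *Grb10* (adjusted p = 0.000168), *Igf2r* (adjusted p = 0.00634), *Ndn* (adjusted p = 0.0219) and *Peg3* (adjusted p = 0.0249). *Cdkn1c* was higher at 3m in endothelium and lower in astroglia. The 3m astroglial sums behind the *Cdkn1c* and *Grb10* values held 3 and 1 UMIs. The 3m endothelial sums behind the *Igf2r*, *Ndn* and *Peg3* values held 10, 0 and 5 UMIs. In the age fits, each gene passed the low-count filter in the class with few 3m UMIs only with its P3 libraries. These calls are therefore no support for a difference between the classes.

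Barcodes rejected by the cell filter also held UMIs of the members, with 9 of the 10 above the level of 3 UMIs at P3 and 9 at 3m. The 772 rejected P3 barcodes gave 199 CPM of *Igf2* (413, 188 and 108 CPM by library) and 336 CPM of *Meg3*, and the 1545 rejected 3m barcodes gave 4.86 CPM of *Igf2*, 77.6 CPM of *Meg3*, 59.0 CPM of *Peg3* and 24.5 CPM of *Ndn*. No group of control samples exists for these barcodes, and the source of the UMIs was not tested.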

How the results depend on the processing

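In astroglia, 7 members were called lower at 3m under RLE, no scaling, DESeq2 and without shared barcodes, and 8 without the low-count filter or with the replicate block, which added *Dlk1*. The count was 4 with thinned sums (5 members tested), with the stricter cell filter and in telencephalic sub-clusters. In the latter *Plagl1* turned to 0.25, and the cause was not tested. When 1 library was left out the count ranged from 4 to 7. In endothelium the 5 called became 6 with the replicate block (adding *Meg3*), 8 without the filter, 3 with thinned sums (3 tested), and 4 to 6 without 1 library. For cycling cells the 3 called ranged from 3 to 5 without 1 library and were 2 with thinned cells (8 tested, without *Cdkn1c*). *Dlk1* turned to 0.28 without non-telencephalic cells, *Igf2r* to 0.37 with thinned cells and *Igf2* to −0.22 without P3 replicate 2 (range without 1 library −0.22 to 0.78), and none of the 3 was called; the cause was not tested. *Grb10*, at 0.99, passed the fold threshold under RLE (1.02) and DESeq2 (1.02). Clusters were ranked only among those with at least 20 cells in every library. There the cluster with the highest share of cells with a UMI was the same before and after thinning for 6 of 10 members. The highest by mean was also the highest by pooled CPM for 10 of 10. Outside this limit, NEU_22 had more pooled *Meg3* than PER_6. The interaction of *Meg3* was called without the filter (adjusted p = 0.0150). Of the values of single genes under the alternatives, 323 kept their direction and side of the threshold, 15 gained and 8 lost a call, and 4 reversed. The depth of the 3m sums limits *H19*, *Igf2*, *Grb10* and *Cdkn1c* to bounds or wide ratios.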
